A study of Mus musculus with 108 samples.

Results

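The 43 collagen genes of the mouse hippocampus described here are all rows of the count table whose symbol has the form Col, a number, a, and a number, out of 23337 genes. They were followed across whole hippocampal tissue and across single hippocampal neurons. Tissue was collected at postnatal days 0, 7, 14, 21 and 28 (P0 to P28) with 3 replicates per age, which the labels call independent, 15 libraries in all. The 93 single neurons came from postnatal weeks 3 to 4 and carry the labels of 19 CA1 cholecystokinin (CCK) cells, 14 CA1 parvalbumin (PV) cells, 25 CA1 pyramidal cells, 14 subiculum regular firing pyramidal cells and 21 subiculum burst firing pyramidal cells. CCK cells were also labelled regular-spiking interneurons and PV cells fast-spiking interneurons. The labels name no strain, genotype or treatment and no animal behind a cell. A SMARTer full-length cDNA kit was used throughout, in version 3 for the CA1 neurons and in version 4 for everything else, so that region and kit version cannot be told apart among the neurons. Collagen XXVI is listed under its older symbol Emid2 and lies outside the symbol rule.

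Collagens are mostly secreted trimers of alpha chains wound into a triple helix. Fibrillar collagens build the cables of connective tissue, which in the brain is found mainly in the meninges and around larger vessels. Type IV chains form the sheet of the basement membrane under endothelium and pia, and collagen XVIII is carried there as a heparan sulfate proteoglycan. Type VI forms beaded microfilaments next to basement membranes. The fibril-associated collagens with interrupted triple helices (FACIT) decorate fibrils, and the transmembrane collagens XIII, XVII, XXIII and XXV sit in the cell surface and can be shed. Some of these last groups are made by neurons: collagen XIX is known from hippocampal interneurons in the mouse, and collagen XXV was isolated from amyloid plaques as CLAC.

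Upstream sequence is given for 4 genes, because the strongest contrasts between labelled neuron types concerned the pair Col25a1 and Col19a1 and the pair Col6a1 and Col6a2. RefSeq promoter windows on build GRCm38.p6 matched 35 of the 43 members, in 38 windows. Printed 5′ to 3′ on the gene's own strand are the bases before the RefSeq start site, up to 250, without any base that an annotated exon covers. Positions are chr3:130180595-130180844, plus strand for Col25a1, chr1:24587473-24587687, minus strand for Col19a1, chr10:76726169-76726294, minus strand for Col6a1 and chr10:76623631-76623880, minus strand for Col6a2. Capitals mark matches, on either strand, to the TATA box (TATAAA), the CCAAT box or the GC box (GGGCGG), which do not overlap here.
Col25a1: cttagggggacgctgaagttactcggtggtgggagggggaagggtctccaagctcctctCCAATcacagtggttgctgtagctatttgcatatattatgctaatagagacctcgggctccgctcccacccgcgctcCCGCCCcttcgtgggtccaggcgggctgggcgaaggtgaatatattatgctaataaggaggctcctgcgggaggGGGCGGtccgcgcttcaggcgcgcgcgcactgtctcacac
Col19a1: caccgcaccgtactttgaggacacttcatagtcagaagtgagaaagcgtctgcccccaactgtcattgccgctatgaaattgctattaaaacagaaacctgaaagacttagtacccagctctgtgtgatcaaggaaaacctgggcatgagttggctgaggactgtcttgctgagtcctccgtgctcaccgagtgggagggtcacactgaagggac
Col6a1: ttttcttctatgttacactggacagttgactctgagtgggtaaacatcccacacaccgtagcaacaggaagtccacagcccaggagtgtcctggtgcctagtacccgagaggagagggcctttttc
Col6a2: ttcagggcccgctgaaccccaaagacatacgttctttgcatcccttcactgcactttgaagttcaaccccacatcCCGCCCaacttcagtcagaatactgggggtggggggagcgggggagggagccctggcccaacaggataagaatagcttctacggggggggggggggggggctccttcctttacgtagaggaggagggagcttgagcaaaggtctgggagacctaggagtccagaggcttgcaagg
Col25a1 held a CCAAT box 191 bases before its RefSeq start and 2 GC boxes nearer to it, the closest at 40 bases. That start lies inside the gene as placed by GENCODE, which begins at chr3:130131501, and the stretch before the GENCODE start is not shown. Col6a2 held a single GC box, on the other strand, 175 bases before its start. None of these letters occurred in the shorter stretches shown for Col19a1 and Col6a1. Among all 32851 promoter stretches of 250 bases, 12.4% held a TATA box, 33.8% a CCAAT box and 32.7% a GC box, while of the 38 collagen stretches 13.2%, 34.2% and 57.9% did in the same order. At the length shown for Col19a1 the shares of all promoters were 9.75%, 30.4% and 27.7%, and at that for Col6a1 6.26%, 16.9% and 13.5%.

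Tissue libraries held 2341677 (P0 replicate 1) to 13262818 gene reads, and tissue values are TMM-normalised CPM, the gene's reads scaled to a fixed library total. Single cells held 30025 to 11694081 gene reads. Glutamate decarboxylase Gad1 summed to 1933 CPM in CCK and 2863 CPM in PV cells, against 8.75 CPM in CA1 pyramidal cells. The vesicular glutamate transporter Slc17a7 summed to 379 CPM in CA1 pyramidal, 1715 CPM in regular and 1361 CPM in burst cells. It stood at 66.5 CPM in CCK and 59.5 CPM in PV cells. Pvalb reached 338 CPM in PV cells, with reads in 8 of 14. Cck reached 705 CPM in CCK cells, against 688 CPM in PV, 214.3 CPM in CA1 pyramidal, 781 CPM in regular and 773 CPM in burst cells. The cannabinoid receptor Cnr1 reached 5439 CPM in CCK cells, with reads in 19 of 19. It stood at 1152 CPM in PV, 268 CPM in CA1 pyramidal, 51.2 CPM in regular and 44.4 CPM in burst cells. Nothing in the labels says that replicates came from separate animals, so p-values measure the spread between these libraries.

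In tissue the summed level of the collagen genes was highest at P7. Summed over all members they made up 744 ± 136.5 CPM at P0, 1477 ± 124.1 at P7, 876 ± 33.6 at P14, 825 ± 55.0 at P21 and 778 ± 68.7 at P28 (SD, n = 3 each). All 3 P7 libraries, at 1335 to 1565 CPM, lay above every library of the other ages. Of the 41 members that passed the filter on low counts, 24 (58.5%) had their highest mean at P7, while 15% of the 14737 genes tested did. Of the others, 7 were highest at P0, 5 at P14, 1 at P21 and 4 at P28. Col10a1 and Col17a1 did not pass the filter and stayed at or under 1.23 CPM in every tissue library.

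Between neighbouring ages the calls (edgeR quasi-likelihood test, Benjamini-Hochberg adjusted p under 0.05 over all genes tested) fell almost wholly into the first 2 steps. At P7 against P0, 24 of 41 collagen genes were called, beside 38.8% of all genes tested; 23 were higher and 1 lower, beside 21% and 17.8% of all genes. At P14 against P7, 28 were called, beside 42.2% of all genes; 25 were lower and 3 higher, beside 20.5% and 21.7%. Both steps share the P7 libraries. The median log2 fold change of the 41 genes was 0.75 at P7 against P0 and -0.97 at P14 against P7, beside 0.02 and 0.00 for all genes tested. At P21 against P14, Col23a1 was higher and Col14a1 lower, beside 9.93% and 10.6% of all genes (20.5% in either direction). At P28 against P21, Col11a1 was higher and Col4a1 lower, beside 4.49% and 3.34% of all genes (7.83% in either direction); the Col4a1 call was lost without P21 replicate 1 (-0.41, adjusted p = 0.102), P21 replicate 2 (-0.39, adjusted p = 0.122), P28 replicate 1 (-0.39, adjusted p = 0.106) or P28 replicate 3 (-0.46, adjusted p = 0.0835) and with library totals alone as scaling (-0.41, adjusted p = 0.0516). Over the whole period, P28 against P0, 20 members were called, beside 64.2% of all genes; 9 were higher and 11 lower, beside 32.9% and 31.3%. The F test over ages called 35 of 41, where it called 76.4% of all genes. With all libraries thinned to the smallest, 31 members could be tested, of which 8 were called at P7 against P0, 14 at P14 against P7 and 11 at P28 against P0. Among calls that no left-out library ended, thinning ended those of Col12a1, Col20a1, Col5a1 and Col6a1 at P28 against P0 (adjusted p 0.306 to 0.522), of Col18a1, Col22a1, Col23a1, Col4a5, Col6a2 and Col9a2 at P7 against P0 (0.107 to 0.293) and of Col11a1, Col19a1, Col23a1, Col4a6, Col6a3, Col7a1 and Col9a1 at P14 against P7 (0.0533 to 0.847). Without P0 replicate 3, 15 members were called at P7 against P0. The shares of all genes called in thinned libraries or with a library left out were not counted. A loss particular to collagen genes therefore cannot be told from a loss over all genes.

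**Figure D1:**
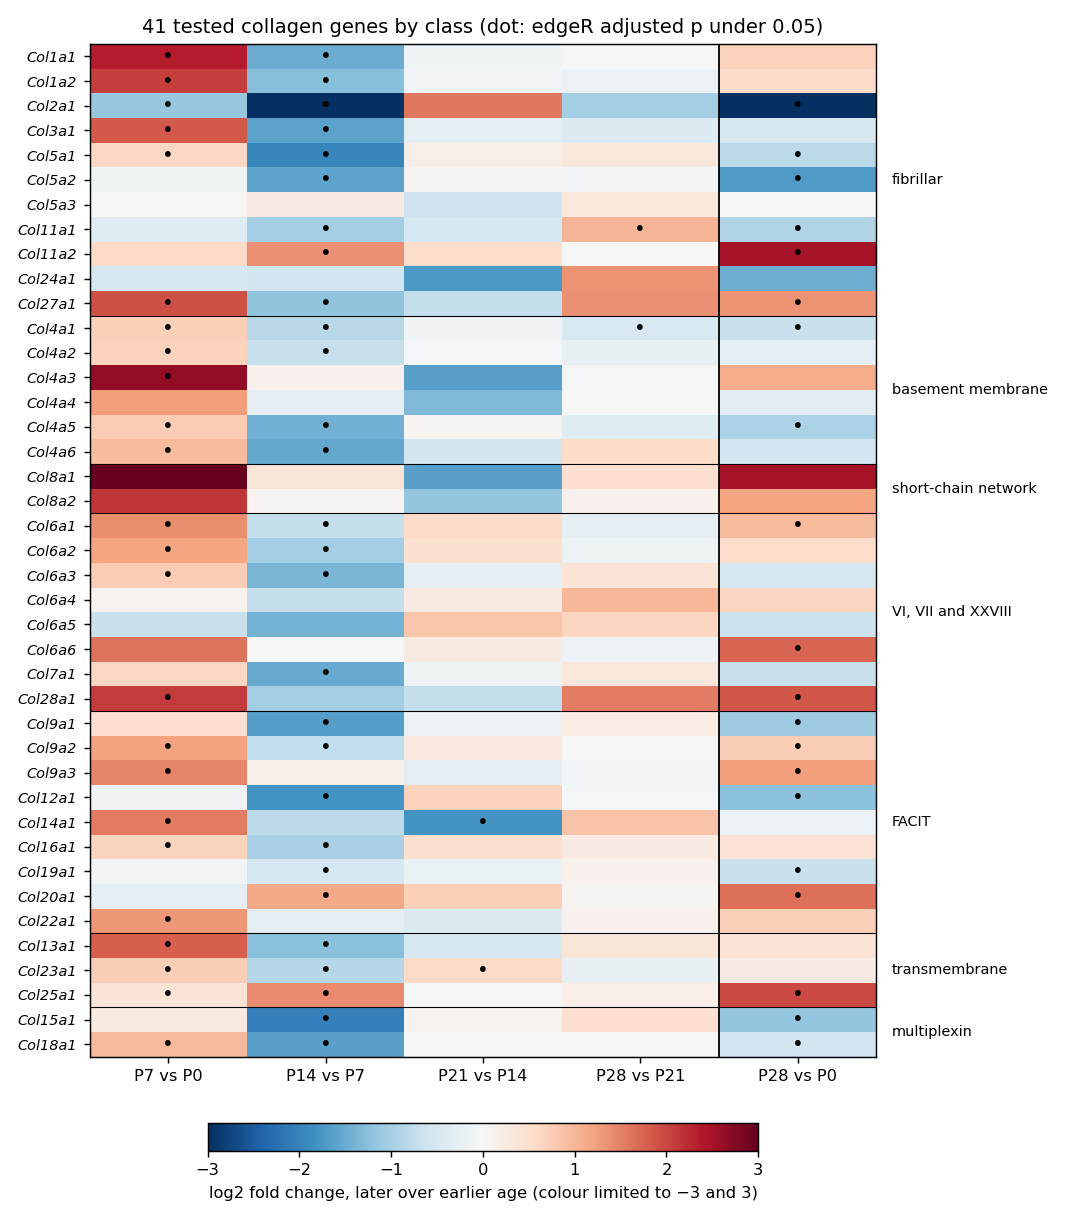
Log2 fold change of the 41 tested collagen genes (rows, by class) at each step between ages and for P28 against P0 (columns). Red is higher at the later age, and dots mark the genes called, 24 at P7 against P0 and 28 at P14 against P7.

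Among the 11 fibrillar genes, 5 were higher and Col2a1 lower at P7 against P0, beside 21% and 17.8% of all genes tested. At P14 against P7, 8 were lower and Col11a2 higher, beside 20.5% and 21.7% of all genes tested. The leading members were the chains of types I and III, the collagens of meningeal and perivascular fibroblasts. Col1a1 (chr11:94936224-94953042, mm10), which encodes the alpha-1 chain of type I, measured 8.06, 41.5 and 20.4 CPM at P0, 155, 107.95 and 141 CPM at P7, 47.7, 39.5 and 54.7 CPM at P14, 53.3, 36.6 and 40.1 CPM at P21 and 33.5, 42.8 and 49.4 CPM at P28. The P7 libraries stood above all others, and P0 replicate 1 was the lowest of all. Its log2 fold change was 2.37 ± 0.36, adjusted p = 0.000289 at P7 against P0 (± SE throughout) and -1.49 ± 0.33, adjusted p = 0.00350 at P14 against P7.

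Its partner chain Col1a2 (chr6:4504814-4541544) measured 13.7, 49.99 and 28.6 CPM at P0, 164, 117.7 and 142 CPM at P7, 63.0, 52.6 and 58.0 CPM at P14, 67.9, 46.1 and 51.4 CPM at P21 and 45.9, 56.3 and 45.6 CPM at P28. Again P7 was above every other library, and P0 reached P28 levels in replicate 2 alone. The log2 fold change was 2.07 ± 0.29, adjusted p = 0.000102 at P7 against P0 and -1.27 ± 0.27, adjusted p = 0.00204 at P14 against P7. Col3a1 (chr1:45311538-45349706), the homotrimeric type III chain of vessel walls and meninges, measured 21.4, 56.5 and 37.1 CPM at P0, 182, 134.2 and 124.8 CPM at P7, 50.9, 56.3 and 38.2 CPM at P14, 52.2, 28.17 and 35.4 CPM at P21 and 24.9, 33.4 and 28.8 CPM at P28. It rose by 1.84 ± 0.29, adjusted p = 0.000328 at P7 against P0 on the log2 scale and changed by -1.61 ± 0.29, adjusted p = 0.000573 at P14 against P7. Unlike at P7, P28 and P0 libraries of all 3 genes overlapped, with log2 fold changes of 0.69, adjusted p = 0.105 for Col1a1, 0.56, adjusted p = 0.104 for Col1a2 and -0.48, adjusted p = 0.178 for Col3a1.

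Per kilobase of the principal transcript, Col3a1 stood at 2.07 ± 0.697 times Col1a1 at P0, 1.17 ± 0.204 at P7, 1.13 ± 0.388 at P14, 0.935 ± 0.111 at P21 and 0.749 ± 0.111 at P28 (SD, n = 3). The 3 P28 ratios ran from 0.622 to 0.831 and the 3 P0 ratios from 1.45 to 2.82, without a test. Col1a1 over Col1a2 stayed between 0.531 and 0.977 in all 15 libraries.

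Beside these genes, 9 markers of leptomeningeal fibroblasts were followed. Their summed level ran from 49.6 to 130.7 CPM at P0, 234 to 353 at P7, 206 to 238.9 at P14, 187 to 291 at P21 and 186 to 247 at P28, with reads of all 9 in every library. Of the 9, 8 were higher at P7 against P0, 2 lower at P14 against P7, where all 3 collagen genes fell, and 5 higher at P28 against P0 (median log2 fold change 0.66), where none of the 3 was called. Among all genes tested, 21%, 20.5% and 32.9% were called in these directions in the same order. The library with the highest marker sum of its age was also the highest in Col1a2 in 5 of 5 ages, in Col3a1 in 4, in Col1a1 in 3 and in the type VI chain Col6a1 in 2, and P0 replicate 1 was the lowest of its age in the markers and in Col1a2. Their part in the collagen levels was not tested, and in bulk tissue fewer cells of a type and less RNA per cell cannot be told apart.

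Col5a1 (chr2:27886425-28039514) and Col5a2 (chr1:45374321-45503282) encode type V chains, which start and thin type I fibrils. Col5a1 measured 15.3, 22.9 and 24.7 CPM at P0, 41.8, 27.0 and 32.0 CPM at P7, 10.8, 7.54 and 7.16 CPM at P14, 9.19, 9.06 and 11.3 CPM at P21 and 12.3, 11.4 and 13.6 CPM at P28. P14 to P28 libraries lay below all earlier ones, at log2 fold changes of -1.95 ± 0.20, adjusted p = 2.24e-07 for P14 against P7 and -0.81 ± 0.19, adjusted p = 0.00127 for P28 against P0. Its rise at P7 against P0 (0.62, adjusted p = 0.0152) did not pass without P0 replicate 1 (0.48, adjusted p = 0.0538) or P7 replicate 1 (0.45, adjusted p = 0.0956). Col5a2 measured 25.4, 31.4 and 26.5 CPM at P0, 29.7, 26.4 and 21.7 CPM at P7, 6.48, 13.97 and 6.997 CPM at P14, 9.49, 10.2 and 7.305 CPM at P21 and 10.1, 8.01 and 7.86 CPM at P28. P7 and P0 libraries overlapped, and it then fell by 1.58 ± 0.23, adjusted p = 1.59e-05 at P14 against P7 and by 1.71 ± 0.22, adjusted p = 1.53e-06 at P28 against P0. Col5a3 kept to 1.95 to 4.12 CPM and was not called at any step.

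The cartilage-type fibrillar genes went separate ways. Col2a1 (chr15:97975602-98004695), the type II chain, measured 12.5, 26.3 and 22.5 CPM at P0, 10.3, 9.35 and 9.35 CPM at P7, 0.648, 0.222 and 0.494 CPM at P14, 0.540, 2.58 and 1.71 CPM at P21 and 1.52, 0.165 and 0.848 CPM at P28. Every library from P14 on lay far below every earlier one, without overlap. The log2 fold change was -4.77 ± 0.46, adjusted p = 4.48e-08 at P28 against P0, -4.20 ± 0.53, adjusted p = 4.00e-06 at P14 against P7 and -1.14 ± 0.36, adjusted p = 0.0181 at P7 against P0. This last call was lost without P0 replicate 2 (-0.93, adjusted p = 0.0993), P0 replicate 3 (-1.09, adjusted p = 0.0631), P7 replicate 2 (-1.12, adjusted p = 0.0533) or P7 replicate 3 (-1.12, adjusted p = 0.0636).

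Col11a1 (chr3:114030540-114220718), a type XI chain that nucleates cartilage fibrils, measured 22.6, 33.9 and 30.7 CPM at P0, 25.1, 25.4 and 18.5 CPM at P7, 6.64, 15.5 and 12.5 CPM at P14, 7.26, 8.62 and 7.46 CPM at P21 and 13.4, 17.5 and 16.5 CPM at P28. It was lowest at P21 and higher again at P28. Against P21, P28 differed by 1.03 ± 0.23, adjusted p = 0.0112, a call lost without P21 replicate 1 (0.97, adjusted p = 0.0548), and against P0 by -0.90 ± 0.22, adjusted p = 0.00132. Col11a2 (chr17:34039437-34066685), the alpha-2 chain of the same type, measured 6.85, 3.90 and 6.11 CPM at P0, 6.92, 6.51 and 9.73 CPM at P7, 16.9, 18.4 and 26.8 CPM at P14, 33.2, 27.1 and 30.3 CPM at P21 and 33.4, 25.9 and 31.3 CPM at P28. Every library from P14 on exceeded all from P0 and P7, while those of Col11a1 lay below them. The log2 fold change was 1.38 ± 0.22, adjusted p = 3.81e-05 at P14 against P7 and 2.50 ± 0.22, adjusted p = 7.64e-09 at P28 against P0. At P28 against P0 these chains of 1 type had opposite signs under TMM, RLE and library totals.

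Of the remaining fibrillar genes, Col27a1 reached at most 6.33 CPM and Col24a1 at most 1.63 CPM. Col27a1 was called at P28 against P0 (1.36, adjusted p = 0.0249), a call lost without P0 replicate 2 (1.23, adjusted p = 0.0986), P0 replicate 3 (1.11, adjusted p = 0.129) or P28 replicate 3 (1.19, adjusted p = 0.0827). Col24a1 was called at no step.

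**Figure D2:**
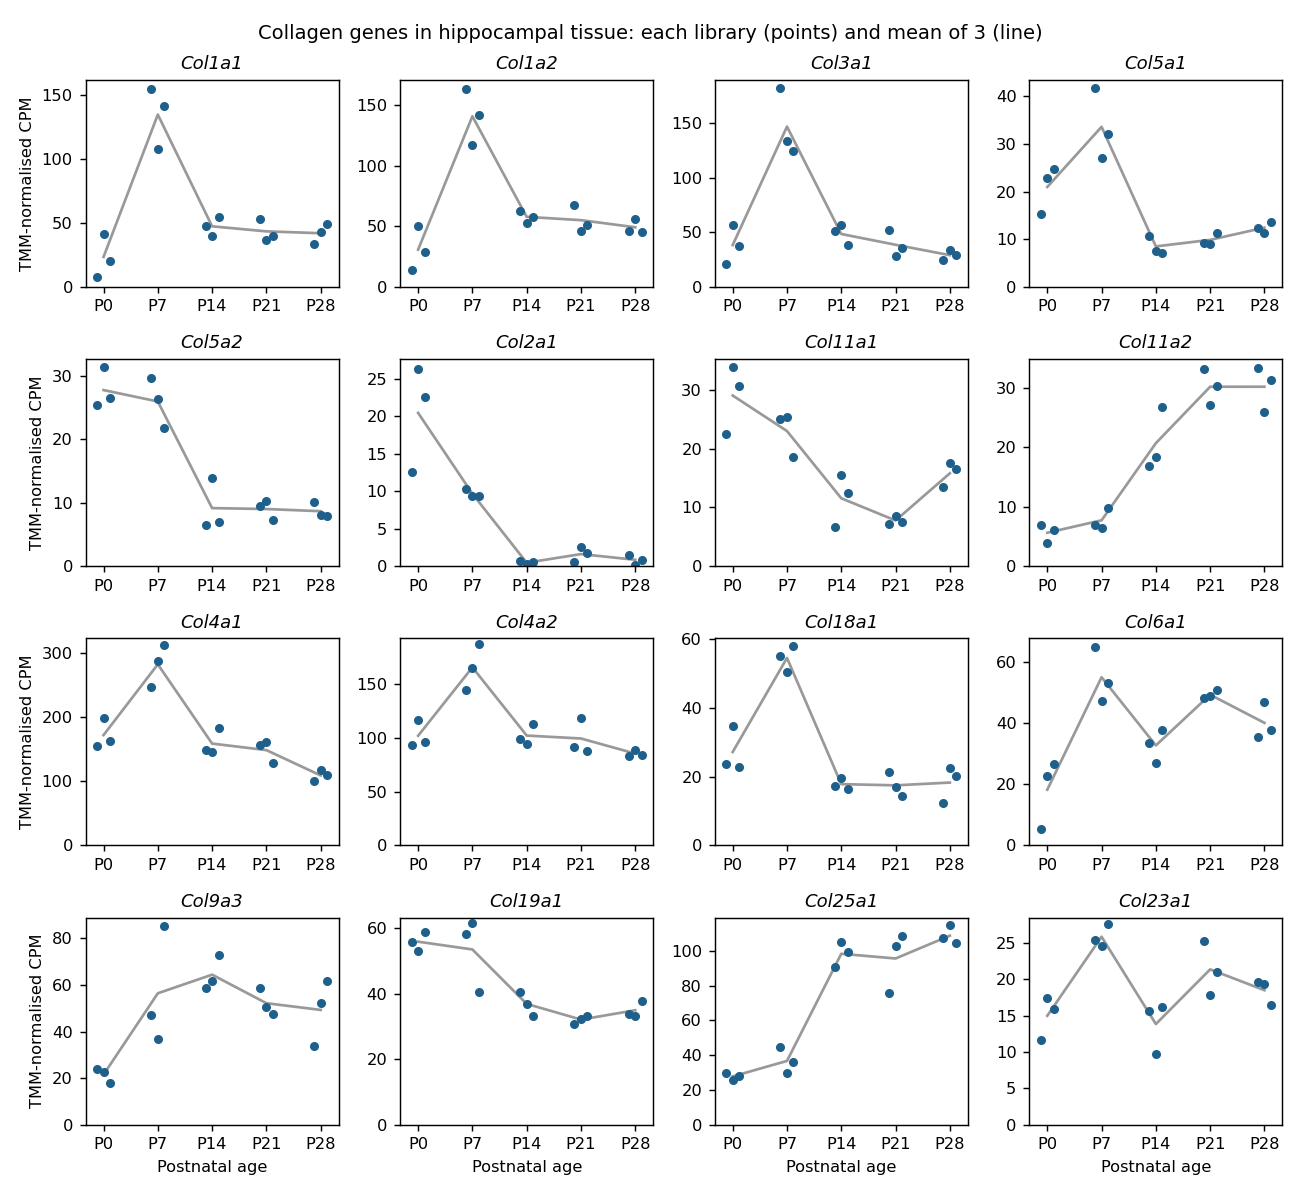
TMM-normalised CPM of 16 collagen genes in each tissue library (points) by postnatal age, with the mean of 3 replicates as a line; each vertical axis starts at 0 and has its own range. Col1a1, Col1a2 and Col3a1 stand highest at P7, Col2a1 lies near 0 from P14 on, and Col25a1 and Col11a2 climb.

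The basement membrane genes Col4a1 and Col4a2, whose products join as the common type IV trimer under the endothelium, were the collagen genes with the highest level per kilobase of transcript at P0, at 26.0 and 15.8 CPM per kilobase. They are transcribed head to head on chromosome 8: the RefSeq starts at 11312826 (minus strand, Col4a1) and 11312805 (plus strand, Col4a2) are 21 bases apart, so that the first exons overlap. Col4a1 (chr8:11198423-11312826) measured 155, 199 and 162 CPM at P0, 247, 287 and 312 CPM at P7, 149, 145 and 182 CPM at P14, 156, 161 and 128.2 CPM at P21 and 100.2, 117.2 and 109.9 CPM at P28. All P7 libraries exceeded all others, and all P28 libraries lay below all P0 libraries. The log2 fold change was 0.71 ± 0.12, adjusted p = 0.000131 at P7 against P0, -0.83 ± 0.12, adjusted p = 1.44e-05 at P14 against P7 and -0.66 ± 0.12, adjusted p = 8.64e-05 at P28 against P0.

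Col4a2 (chr8:11312805-11449287) measured 93.5, 116.4 and 96.5 CPM at P0, 145, 165 and 188 CPM at P7, 99.4, 94.7 and 112.9 CPM at P14, 91.6, 119.1 and 88.1 CPM at P21 and 83.7, 88.9 and 84.1 CPM at P28. Its P7 peak was like that of Col4a1, with log2 fold changes of 0.70 ± 0.12, adjusted p = 0.000183 at P7 against P0 and -0.70 ± 0.12, adjusted p = 0.000104 at P14 against P7. P28 and P0 differed by -0.27 ± 0.12, adjusted p = 0.0629, which misses the threshold. Per kilobase, Col4a1 over Col4a2 was 1.64 ± 0.0257 at P0, 1.66 ± 0.0388 at P7, 1.51 ± 0.0609 at P14, 1.47 ± 0.179 at P21 and 1.24 ± 0.0652 at P28 (SD, n = 3). The ratio was 1.17 to 1.28 in the P28 libraries, against 1.61 to 1.67 in the P0 libraries, a difference that was not tested.

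The part of vessel cell numbers in these levels was not tested. The 9 endothelial markers summed to 115.9 to 128.1 CPM at P0, 197 to 206 at P7, 285 to 359 at P14 and 297 to 319 at P21, while 2 P28 libraries had 262.9 and 282 CPM and the other P28 library less, though more than any P7 library. Of the 9, 6 were higher at P7 against P0, beside 21% of all genes tested. At P14 against P7, 4 were higher and 1 lower, beside 21.7% and 20.5% of all genes tested. The 9 mural markers summed to 141 to 169 CPM at P0, 274 to 288 at P7, 248.9 to 276 at P14, 256 to 276 at P21 and 244.2 to 289 at P28. The library with the highest endothelial sum of its age was also the highest in Col4a1 in 2 of 5 ages, and likewise for Col4a2. The lowest was the lowest in 0 of 5 for both genes. For mural markers and Col4a1, these numbers were 3 and 1.

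Col4a5 and Col4a6, X-linked neighbours that form the minor type IV trimers, had the same P7 peak at a lower level. Col4a5 (chrX:141475385-141689234) measured 19.4, 22.1 and 17.3 CPM at P0, 32.3, 31.7 and 35.7 CPM at P7, 12.4, 12.9 and 11.5 CPM at P14, 16.3, 8.89 and 13.8 CPM at P21 and 7.62, 10.2 and 12.02 CPM at P28. P7 was highest throughout, and the log2 fold change was -1.45 ± 0.19, adjusted p = 6.16e-06 at P14 against P7 and -0.96 ± 0.20, adjusted p = 0.000299 at P28 against P0. Col4a6 (chrX:141165403-141474076) measured 5.24, 5.95 and 4.48 CPM at P0, 11.5, 8.13 and 10.4 CPM at P7, 4.38, 2.66 and 3.05 CPM at P14, 2.08, 2.13 and 3.11 CPM at P21 and 2.49, 3.47 and 4.24 CPM at P28. It differed by 0.94 ± 0.26, adjusted p = 0.00740 at P7 against P0, a call lost without P0 replicate 3 (0.80, adjusted p = 0.0533), and by -1.53 ± 0.26, adjusted p = 9.64e-05 at P14 against P7.

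Col4a3 (chr1:82586921-82722059), an alpha chain of the specialised kidney-type network, measured 0.806, 1.11 and 0.652 CPM at P0, 4.61, 1.42 and 9.44 CPM at P7, 3.81, 13.1 and 3.05 CPM at P14, 3.63, 0.889 and 0.932 CPM at P21 and 0.970, 2.07 and 2.39 CPM at P28. Every P7 library exceeded every P0 library, and at P7, P14 and P21 a single library stood well above its replicates. P7 against P0 gave 2.66 ± 0.81, adjusted p = 0.0172, which was lost without P0 replicate 2 (2.98, adjusted p = 0.0504), P0 replicate 3 (2.39, adjusted p = 0.0950) or P7 replicate 3 (1.73, adjusted p = 0.146). Of its exon bases, 5.65% are shared with C430014B12Rik on the other strand, and the sources used here do not say whether the libraries kept the strand. Col4a4 reached at most 2.74 CPM.

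Type VIII collagen, a short-chain network former, varied widely between replicates. Col8a1 measured 1.21, 1.11 and 4.89 CPM at P0, 19.7, 10.6 and 47.1 CPM at P7, 18.5, 70.8 and 20.3 CPM at P14, 25.6, 2.84 and 3.26 CPM at P21 and 5.13, 17.8 and 23.7 CPM at P28. A single library at P14 and one at P21 were several times above their replicates. Col8a2 measured 4.43, 4.74 and 5.13 CPM at P0, 23.1, 7.12 and 32.8 CPM at P7, 14.9, 32.2 and 23.1 CPM at P14, 21.5, 4.18 and 3.26 CPM at P21 and 2.63, 16.4 and 12.9 CPM at P28. Neither gene was called between any ages, with log2 fold changes at P7 against P0 of 3.26 ± 1.18, adjusted p = 0.0503 for Col8a1 and 2.15 ± 0.87, adjusted p = 0.0749 for Col8a2. The 9 choroid plexus markers summed to 6.76 to 9.198 CPM at P0, 204.7 to 1453 at P7, 839 to 2603 at P14, 47.2 to 1097 at P21 and 81.3 to 999 at P28, with reads of 5 of the 9 markers in P0 replicate 1 and of 8 or all 9 in every other library. The library with the highest marker sum of its age was also the highest in Col4a3 in 5 of 5 ages, in Col8a1 in 4, in Col8a2 in 3 and in Col4a4 in 2. The part of choroid plexus tissue in these levels was not tested.

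**Figure D3:**
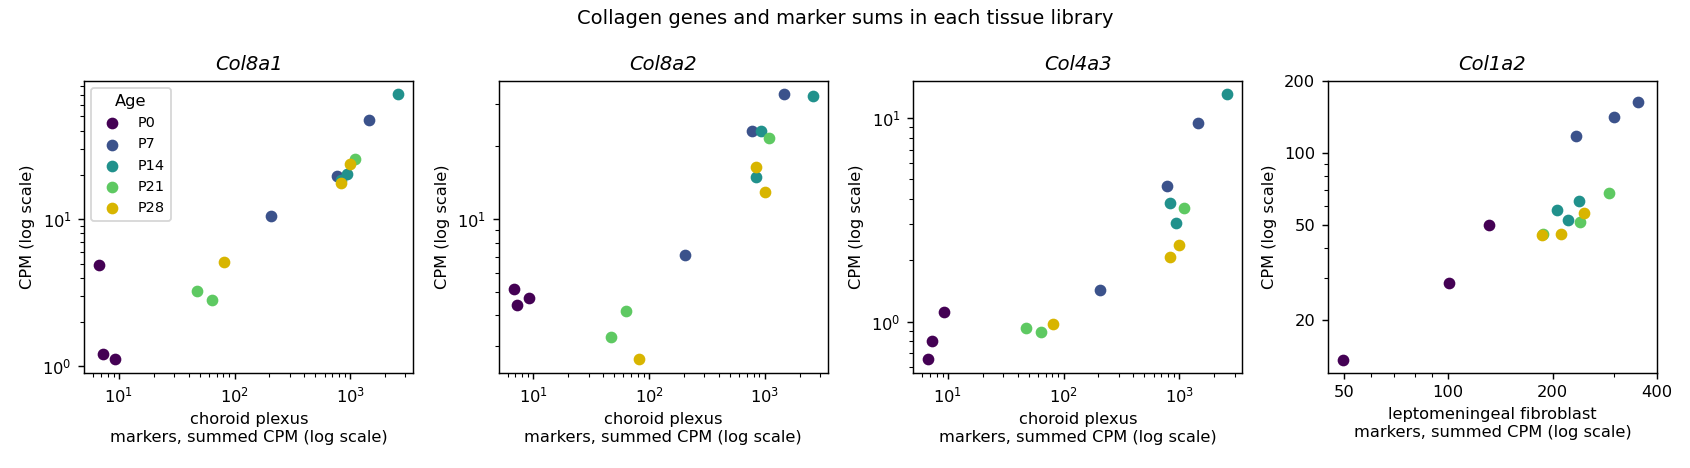
Level of Col8a1, Col8a2 and Col4a3 against the summed CPM of 9 choroid plexus markers, and of Col1a2 against 9 leptomeningeal fibroblast markers, in the 15 tissue libraries (points, coloured by age; all axes logarithmic). P14 replicate 2, with 2603 CPM of choroid plexus markers, is the highest library for Col8a1 and Col4a3.

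All 3 common type VI chains were higher at P7 against P0, and Col6a1 was still higher at P28 against P0. Col6a1 (chr10:76708792-76726168) measured 5.24, 22.8 and 26.6 CPM at P0, 64.6, 47.2 and 52.9 CPM at P7, 33.5, 26.8 and 37.5 CPM at P14, 48.2, 48.7 and 50.7 CPM at P21 and 35.5, 46.8 and 37.8 CPM at P28. P0 replicate 1 lay far below the other P0 libraries, and all P28 libraries exceeded all P0 libraries. The log2 fold change was 1.40 ± 0.28, adjusted p = 0.00121 at P7 against P0 and 0.96 ± 0.27, adjusted p = 0.00671 at P28 against P0. The second call was lost with the 6 libraries of P28 and P0 alone (0.96, adjusted p = 0.0650) and in thinned libraries (0.42, adjusted p = 0.384). At P14 against P7 it was -0.72 ± 0.27, adjusted p = 0.0406, which was lost without P7 replicate 1 (-0.60, adjusted p = 0.130), P7 replicate 3 (-0.75, adjusted p = 0.0797), P14 replicate 1 (-0.73, adjusted p = 0.0920), P14 replicate 2 (-0.62, adjusted p = 0.120) or P14 replicate 3 (-0.83, adjusted p = 0.0572), without the filter on low counts (-0.71, adjusted p = 0.0949), in DESeq2 (-0.75, adjusted p = 0.0780) and in thinned libraries (-0.43, adjusted p = 0.445).

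Col6a2 (chr10:76595762-76623630) measured 3.23, 13.9 and 13.7 CPM at P0, 33.8, 20.7 and 25.8 CPM at P7, 15.5, 8.43 and 14.32 CPM at P14, 20.1, 14.5 and 20.8 CPM at P21 and 18.01, 18.3 and 13.9 CPM at P28. Every P7 library exceeded every P0 and P14 library, at 1.19 ± 0.30, adjusted p = 0.00526 for P7 against P0 and -1.01 ± 0.30, adjusted p = 0.0109 for P14 against P7, the second lost without P7 replicate 1 (-0.83, adjusted p = 0.0509). Col6a3 (chr1:90765923-90843971), the longest of the common chains, measured 4.84, 7.34 and 5.95 CPM at P0, 11.02, 13.2 and 8.03 CPM at P7, 5.43, 2.44 and 3.79 CPM at P14, 2.70, 3.91 and 3.42 CPM at P21 and 4.71, 3.55 and 5.09 CPM at P28. P7 was above P14 in every library, and the level fell by 1.37 ± 0.28, adjusted p = 0.000487 at P14 against P7 on the log2 scale. Its rise at P7 against P0 (0.75, adjusted p = 0.0344) was lost without P0 replicate 1 (0.67, adjusted p = 0.0833), P0 replicate 3 (0.70, adjusted p = 0.111), P7 replicate 1 (0.73, adjusted p = 0.0771) or P7 replicate 2 (0.57, adjusted p = 0.157). Per kilobase, Col6a1 stood at 2.32 ± 0.376 and Col6a3 at 0.120 ± 0.0376 times Col6a2 at P28, against 1.67 ± 0.173 and 0.360 ± 0.259 at P0 (SD, n = 3).

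Col6a4, Col6a5 and Col6a6, alternatives to Col6a3 in the trimer, reached at most 3.53 CPM. Col6a6 was called at P28 against P0 (1.74, adjusted p = 0.0245), lost without P0 replicate 3 (1.67, adjusted p = 0.0877) or P28 replicate 2 (1.07, adjusted p = 0.204). Col7a1 (chr9:108953586-108984875), the anchoring-fibril collagen, measured 1.21, 4.83 and 2.85 CPM at P0, 4.36, 4.68 and 6.04 CPM at P7, 1.62, 0.665 and 2.63 CPM at P14, 1.31, 1.78 and 1.86 CPM at P21 and 1.94, 2.73 and 1.54 CPM at P28. Its mean was highest at P7, but P7 and P0 libraries overlapped and P7 against P0 was not called (0.63, adjusted p = 0.210). P14 against P7 gave -1.50 ± 0.40, adjusted p = 0.00521. Col28a1 reached at most 1.31 CPM and was called at P28 against P0 (1.86, adjusted p = 0.0198), lost without P0 replicate 3 (1.55, adjusted p = 0.108) or P28 replicate 3 (1.37, adjusted p = 0.128) and in DESeq2 (1.95, adjusted p = 0.0511).

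Of the 9 FACIT genes, 5 were higher at P7 against P0, beside 21% of all genes tested. At P14 against P7, 5 were lower and Col20a1 higher, beside 20.5% and 21.7% of all genes tested. Col9a3 (chr2:180597790-180622189), a type IX chain of fibril surfaces, measured 23.8, 22.9 and 17.9 CPM at P0, 47.2, 36.6 and 85.5 CPM at P7, 58.8, 61.7 and 72.7 CPM at P14, 58.6, 50.5 and 47.4 CPM at P21 and 33.9, 52.4 and 61.5 CPM at P28. All later libraries exceeded all P0 libraries, by 1.46 ± 0.29, adjusted p = 0.00137 at P7 and 1.24 ± 0.29, adjusted p = 0.00165 at P28. The library with the highest choroid plexus marker sum of its age was also the highest in Col9a3 in 3 of 5 ages, and the lowest was the lowest in 5 of 5, a relation that was not tested. Its exons share 6.07% of their bases with Tcfl5 on the other strand. Col9a2 (chr4:121039385-121055322) measured 4.84, 5.67 and 5.70 CPM at P0, 10.8, 11.6 and 15.2 CPM at P7, 11.99, 4.88 and 5.10 CPM at P14, 10.4, 7.29 and 10.6 CPM at P21 and 8.17, 9.67 and 9.79 CPM at P28. P7 exceeded P0 by 1.20 ± 0.29, adjusted p = 0.00290. Its call at P14 against P7 (-0.74, adjusted p = 0.0342) was lost without P7 replicate 2 (-0.80, adjusted p = 0.0507), P7 replicate 3 (-0.56, adjusted p = 0.180), P14 replicate 2 (-0.57, adjusted p = 0.107) or P14 replicate 3 (-0.50, adjusted p = 0.177) and with the 6 libraries alone (-0.74, adjusted p = 0.0815), and was -1.34 without P14 replicate 1. Its call at P28 against P0 (0.74, adjusted p = 0.0284) was lost without P0 replicate 1 (0.70, adjusted p = 0.0572), P0 replicate 2 (0.76, adjusted p = 0.0664), P0 replicate 3 (0.77, adjusted p = 0.0655), P28 replicate 2 (0.71, adjusted p = 0.0659) or P28 replicate 3 (0.69, adjusted p = 0.0737) and with library totals alone as scaling (0.59, adjusted p = 0.0845). Col9a1, the remaining chain, reached at most 5.69 CPM, and its call at P28 against P0 (-1.10, adjusted p = 0.0329) was lost without P0 replicate 1 (-0.93, adjusted p = 0.0858), P0 replicate 2 (-0.93, adjusted p = 0.135), P28 replicate 2 (-0.92, adjusted p = 0.117) or P28 replicate 3 (-1.002, adjusted p = 0.0958).

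Col12a1 (chr9:79598991-79718831), a FACIT of tendon and fascia, measured 14.5, 15.1 and 20.4 CPM at P0, 21.8, 14.4 and 12.2 CPM at P7, 4.21, 1.996 and 6.50 CPM at P14, 8.95, 5.78 and 7.46 CPM at P21 and 8.31, 6.28 and 7.40 CPM at P28. It dropped after P7 and regained little, at -1.78 ± 0.29, adjusted p = 6.34e-05 for P14 against P7 and -1.22 ± 0.27, adjusted p = 0.000651 for P28 against P0. Col16a1 (chr4:130047840-130099283) measured 6.45, 18.2 and 14.8 CPM at P0, 22.6, 21.8 and 23.2 CPM at P7, 13.8, 8.65 and 11.3 CPM at P14, 15.4, 15.9 and 17.3 CPM at P21 and 15.8, 21.6 and 19.8 CPM at P28. P7 libraries were close together and above every P14 library, and P14 differed from P7 by -0.97 ± 0.22, adjusted p = 0.00159. The rise at P7 against P0 (0.66, adjusted p = 0.0250) was lost without P0 replicate 1 (0.45, adjusted p = 0.0587), P0 replicate 3 (0.69, adjusted p = 0.0568), P7 replicate 1 (0.66, adjusted p = 0.0534) or P7 replicate 3 (0.62, adjusted p = 0.0739). Col14a1 measured 0.806, 1.86 and 1.22 CPM at P0, 5.13, 1.83 and 5.38 CPM at P7, 2.03, 4.21 and 1.73 CPM at P14, 0.232, 0.622 and 1.55 CPM at P21 and 0.693, 0.909 and 2.003 CPM at P28. Its call at P21 against P14 (-1.79, adjusted p = 0.0383) was lost without P14 replicate 1 (-1.94, adjusted p = 0.0559), P14 replicate 2 (-1.42, adjusted p = 0.121), P21 replicate 1 (-1.27, adjusted p = 0.173) or P21 replicate 2 (-1.71, adjusted p = 0.118) and with the 6 libraries alone (-1.80, adjusted p = 0.0626). Col22a1 reached at most 5.38 CPM, highest at P7 (1.30, adjusted p = 0.00845).

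Col19a1 and Col20a1 moved apart after P7. Col19a1 (chr1:24261890-24587472) measured 55.6, 53.0 and 58.9 CPM at P0, 58.2, 61.6 and 40.6 CPM at P7, 40.6, 36.8 and 33.2 CPM at P14, 30.6, 32.3 and 33.3 CPM at P21 and 33.8, 33.1 and 37.8 CPM at P28. Every library from P14 on lay below every P0 library, and the log2 fold change was -0.52 ± 0.13, adjusted p = 0.00426 at P14 against P7 and -0.68 ± 0.13, adjusted p = 0.000174 at P28 against P0. Col20a1 (chr2:180986535-181018363) measured 1.21, 1.95 and 1.47 CPM at P0, 0.769, 2.03 and 1.23 CPM at P7, 2.67, 1.996 and 3.87 CPM at P14, 4.55, 6.58 and 3.11 CPM at P21 and 5.68, 3.97 and 5.86 CPM at P28. Every P28 library exceeded every P0 library, by 1.65 ± 0.35, adjusted p = 0.000437, while the step at P14 against P7 (1.13, adjusted p = 0.0283) was lost without P7 replicate 1 (0.94, adjusted p = 0.0936), P7 replicate 3 (1.02, adjusted p = 0.117) or P14 replicate 3 (0.84, adjusted p = 0.149).

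Among the transmembrane collagens, Col25a1 had the largest gain in mean CPM of all 41 members at P28 against P0. Col25a1 (chr3:130131501-130599877) measured 29.8, 25.7 and 27.8 CPM at P0, 44.6, 29.7 and 35.8 CPM at P7, 90.4, 105.1 and 99.2 CPM at P14, 76.0, 102.5 and 108.2 CPM at P21 and 107.1, 114.5 and 104.2 CPM at P28. The P14, P21 and P28 libraries were all above 75 CPM and every earlier library below 45 CPM. The log2 fold change was 1.43 ± 0.14, adjusted p = 8.81e-08 at P14 against P7 and 1.99 ± 0.14, adjusted p = 2.32e-10 at P28 against P0. The smaller step at P7 against P0 (0.41, adjusted p = 0.0362) was lost without P0 replicate 2 (0.34, adjusted p = 0.143), P0 replicate 3 (0.41, adjusted p = 0.0888), P7 replicate 1 (0.27, adjusted p = 0.180) or P7 replicate 3 (0.42, adjusted p = 0.0792) and with library totals alone (0.35, adjusted p = 0.0563). Per kilobase of the principal transcript it was at 41.4 CPM at P28 and 10.6 CPM at P0, beside 16.5 CPM for Col4a1 at P28. This order depends on the length used. The principal transcript of Col25a1 has 2.624 kb and all its annotated exons together 12.947 kb, against 6.615 and 7.464 kb for Col4a1. Without scaling by length, the P28 means were 108.6 CPM for Col25a1 and 109.1 CPM for Col4a1.

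Col23a1 (chr11:51289920-51583918) measured 11.7, 17.4 and 15.9 CPM at P0, 25.4, 24.6 and 27.6 CPM at P7, 15.6, 9.76 and 16.1 CPM at P14, 25.3, 17.8 and 20.98 CPM at P21 and 19.7, 19.3 and 16.5 CPM at P28. It went up, down and up again, with log2 fold changes of 0.74 ± 0.18, adjusted p = 0.00367 at P7 against P0, -0.86 ± 0.18, adjusted p = 0.000708 at P14 against P7 and 0.59 ± 0.18, adjusted p = 0.0250 at P21 against P14. The last step was lost without P14 replicate 2 (0.43, adjusted p = 0.0897) or P21 replicate 1 (0.43, adjusted p = 0.138), was lost with the 6 libraries alone (0.59, adjusted p = 0.0686), and turned to -0.054 in thinned libraries. Col13a1 reached at most 4.91 CPM, with P7 against P0 at 1.78, adjusted p = 0.00109.

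The multiplexins are basement membrane collagens that carry glycosaminoglycan chains. Col18a1 (chr10:77052178-77166548), whose cleaved end is endostatin, measured 23.8, 34.8 and 22.97 CPM at P0, 55.1, 50.6 and 58.0 CPM at P7, 17.3, 19.7 and 16.5 CPM at P14, 21.31, 16.9 and 14.299 CPM at P21 and 12.3, 22.5 and 20.1 CPM at P28. P7 stood clear of all other ages, with log2 fold changes of 0.98 ± 0.19, adjusted p = 0.000497 at P7 against P0 and -1.63 ± 0.20, adjusted p = 1.48e-06 at P14 against P7. Its call at P28 against P0 (-0.57, adjusted p = 0.0150) was lost without P0 replicate 2 (-0.34, adjusted p = 0.171) or P28 replicate 1 (-0.38, adjusted p = 0.0818). Col15a1 reached at most 4.10 CPM and was lower at P14 against P7 (-2.05, adjusted p = 0.00453).

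The machinery that makes and handles collagen was counted next to the chains, from lists of textbook members. Of 31 tested genes of synthesis and processing, 7 were higher and 10 lower at P28 against P0, beside 32.9% and 31.3% of all genes tested. At P7 against P0, 7 were higher and 4 lower, beside 21% and 17.8% of all genes tested. The procollagen C-proteinase enhancers Pcolce2 (log2 fold change 1.97, adjusted p = 0.000310) and Pcolce (1.80, adjusted p = 0.00154) and the prolyl hydroxylase subunit P4ha2 (1.30, adjusted p = 3.62e-06) gained most at P28 against P0. The collagen chaperone Serpinh1, or HSP47 (-0.98, adjusted p = 0.000279), the prolyl isomerase Fkbp10 (-0.97, adjusted p = 0.000470) and peroxidasin Pxdn, which crosslinks type IV collagen (-0.91, adjusted p = 6.85e-08), lost most. Serpinh1 was itself higher at P7 against P0 (0.68, adjusted p = 0.0100) and lower at P14 against P7 (-0.94, adjusted p = 0.000665).

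Of 9 tested collagen receptors, Itga11 (1.97, adjusted p = 0.00190) and the inhibitory receptor Lair1 (1.46, adjusted p = 0.000819) were higher and the integrin subunits Itga1 (-0.60, adjusted p = 0.0175) and Itgb1 (-0.54, adjusted p = 3.64e-05) lower at P28 against P0. These are 2 receptors each way, where 32.9% of all genes tested were higher and 31.3% lower. Of 10 proteases and inhibitors, 4 were higher and 4 lower, beside 32.9% and 31.3% of all genes tested. Those with the largest changes were the inhibitors Timp4 (1.91, adjusted p = 2.86e-10) and Reck (1.38, adjusted p = 3.19e-05) and the collagenolytic cathepsin Ctsk (1.64, adjusted p = 0.00112) upwards, and the metalloproteinases Mmp14 (-1.77, adjusted p = 6.83e-08), Mmp9 (-1.07, adjusted p = 0.00413) and Mmp16 (-0.97, adjusted p = 2.64e-06) downwards. Of 15 noncollagen basement membrane genes, 4 were higher and 6 lower, beside the same shares of all genes. Those higher included the laminin chains Lama3 (1.21, adjusted p = 0.0391) and Lamc3 (1.20, adjusted p = 2.71e-05), and the largest decreases were those of agrin, Agrn (-1.49, adjusted p = 1.18e-09), Lama4 (-1.40, adjusted p = 4.31e-05) and nidogen Nid1 (-1.30, adjusted p = 1.08e-08).

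In single neurons few collagen genes were abundant, and which ones depended on the labelled type. Each labelled type was treated as a single sample by adding up its cells, so that no test was made; intervals are exact and cover counting error only, and amplified reads are not independent molecules. At least 10 CPM were reached by 5 members in CCK, 7 in PV, 6 in CA1 pyramidal, 6 in regular and 5 in burst cells, where 39.4%, 37.9%, 35.3%, 40.8% and 40.1% of all genes in the table did in the same order. The median cell had reads of 4, 2.5, 1, 9 and 8 members in that order. Genes detected per cell, of any kind, had a median of 6085, 4511, 2784, 9704 and 9860 in the same order. In all, 11 members reached 10 CPM in at least 1 type, and Col10a1 had no read in any cell.

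Col25a1 had the most reads of all collagen genes in both interneuron types. It summed to 1171 CPM (95% interval 1162 to 1179) in CCK cells and 579 CPM (95% interval 571 to 588) in PV cells, against 17.7 CPM (95% interval 16.2 to 19.2) in CA1 pyramidal cells. Reads were found in 18 of 19 CCK and 10 of 14 PV cells, against 7 of 25 CA1 pyramidal cells, and after thinning to 200000 reads in 18 of 19, 10 of 13 and 3 of 23 in the same order. Median and highest cells were at 825 and 11994 CPM in CCK, 179.9 and 1824 CPM in PV and 0 and 233 CPM in CA1 pyramidal cells, the lowest cell of each type being at 0. The ratio of summed levels was 66.3 (95% interval 61.0 to 72.2) for CCK and 32.8 (95% interval 30.1 to 35.7) for PV over CA1 pyramidal cells, and with equal weight per cell 58.5 and 16.7.

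Subiculum cells held Col25a1 in most cells at a lower level, with 37.7 CPM (95% interval 34.8 to 40.7) in regular and 20.6 CPM (95% interval 18.8 to 22.6) in burst cells and reads in 12 of 14 and 16 of 21 cells. The median cell was at 26.8 CPM in regular and 6.73 CPM in burst cells. A single cell carried 54.7% of the PV reads and 54.6% of the CA1 pyramidal reads, without which the sums were 330 and 8.38 CPM.

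Col19a1 had the next most collagen reads in both interneuron types and stayed under 1 CPM in the pyramidal types. It summed to 549 CPM (95% interval 543 to 554) in CCK and 323 CPM (95% interval 316 to 329) in PV cells, against 0.158 CPM (95% interval 0.0515 to 0.370) in CA1 pyramidal cells, 0.0605 CPM (95% interval 0.00153 to 0.337) in regular and 0.550 CPM (95% interval 0.284 to 0.961) in burst cells. It was read in 15 of 19 CCK and 7 of 14 PV cells, against 3 of 25 CA1 pyramidal, 1 of 14 regular and 2 of 21 burst cells, and after thinning in 14 of 19 and 7 of 13, against 0 of 23 CA1 pyramidal cells. Median and highest cells were at 114.2 and 6167 CPM in CCK and 112.8 and 1287 CPM in PV cells, and no cell of the other types exceeded 10.6 CPM. The ratio over CA1 pyramidal cells was 3461 (95% interval 1483 to 10659) for CCK cells, on 5 CA1 pyramidal reads. Every Col19a1-positive CCK cell (15) and PV cell (7) also held Col25a1, and 3 further cells of each type held Col25a1 alone. Microglial markers summed to 3164 CPM in CCK and 935 CPM in PV cells, against 2123 CPM in CA1 pyramidal cells.

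In tissue the calls of the pair had opposite signs at P14 against P7 and at P28 against P0, as given above. Of 5 tested markers of GABAergic neurons, 4 were higher and 1 lower at P28 against P0, with a median log2 fold change of 1.41, beside 1.99 for Col25a1 and -0.68 for Col19a1. Among all genes tested, 32.9% were higher and 31.3% lower.

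**Figure D4:**
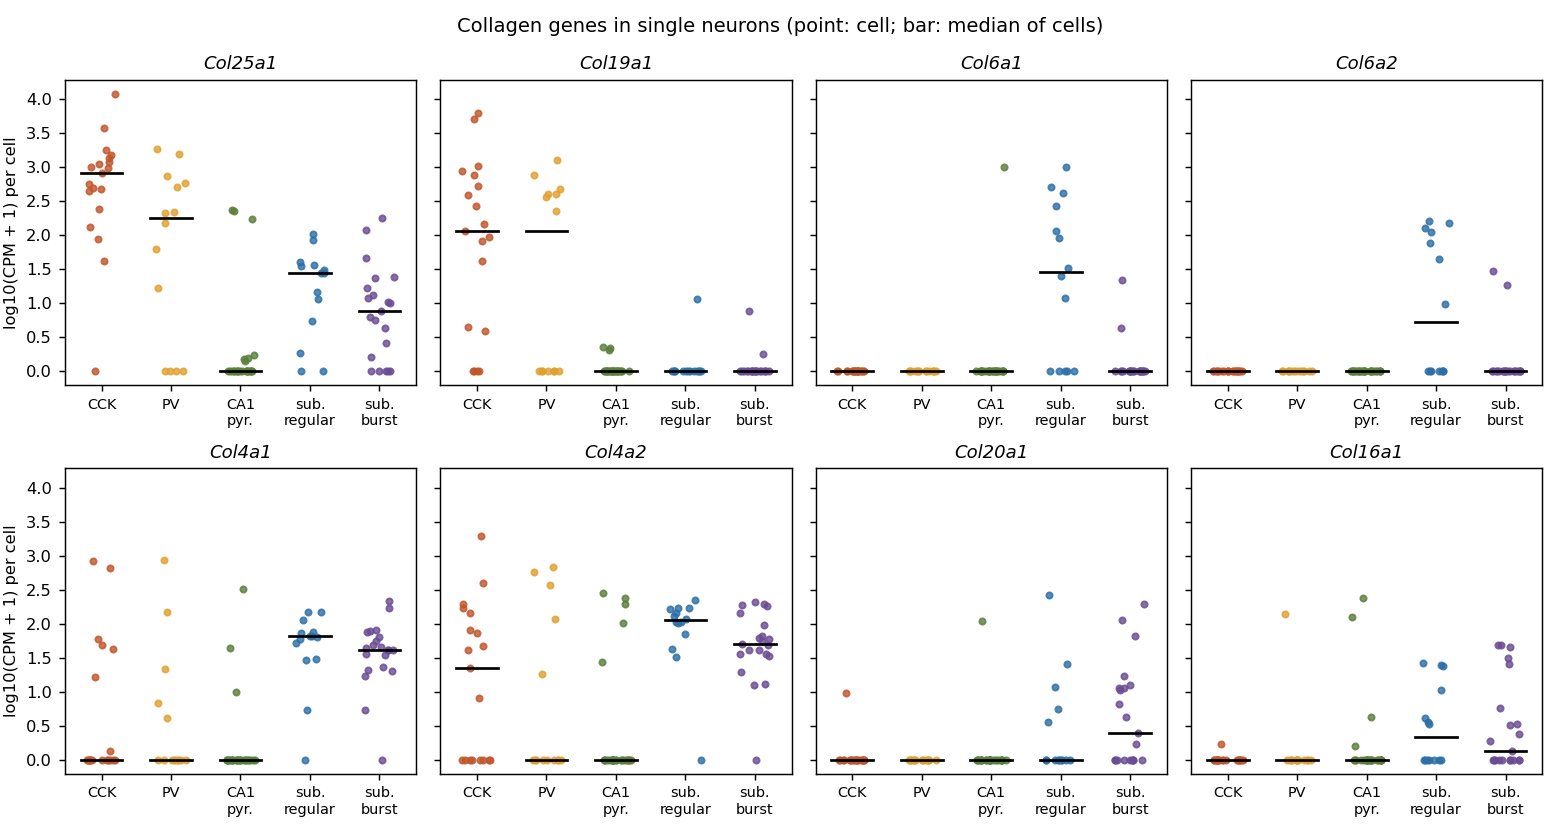
Level of 8 collagen genes in each single neuron, as log10(CPM + 1), by labelled type (points are cells, bars the median cell). Col25a1 and Col19a1 are highest in CCK and PV cells, Col6a1 and Col6a2 in subiculum regular firing cells, and Col4a1 and Col4a2 have reads in nearly all subiculum cells.

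The 3 common type VI chains had higher summed levels in regular firing than in burst firing subiculum cells, which share the kit version, without a test since each type is 1 sum over cells. Col6a1 summed to 224.6 CPM (95% interval 217.4 to 232) in regular cells, against 0.550 CPM (95% interval 0.284 to 0.961) in burst cells, a ratio of 408 (95% interval 233 to 791), or 151 with equal weight per cell. Reads occurred in 9 of 14 regular cells, against 2 of 21 burst cells, and median and highest cells were at 28.07 and 1010.2 CPM in regular and 0 and 21.21 CPM in burst cells. The highest burst cell, with the 21.21 CPM just given, lay within the range of the regular cells, 5 of which were at 0. One regular cell held 54.4% of the reads, and without it the sum was 116.5 CPM.

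Col6a2 followed with 59.7 CPM (95% interval 56.1 to 63.6) in regular cells, against 1.47 CPM (95% interval 1.003 to 2.07) in burst cells, and reads in 7 of 14, against 2 of 21 cells. Its ratio was 40.7 (95% interval 28.7 to 59.9). Col6a3 summed to 6.66 CPM (95% interval 5.47 to 8.03) in regular cells, against 0.825 CPM (95% interval 0.489 to 1.30) in burst cells, with reads in 6 of 14 and 1 of 21 cells. Of the 14 regular cells, 5 held both Col6a1 and Col6a2, 4 Col6a1 alone, 2 Col6a2 alone and 3 neither, against 2 burst cells with Col6a1 alone and 2 with Col6a2 alone of 21. No CCK or PV cell had a read of any of the 3 genes. For 0 cells the exact 95% interval reaches up to 17.6% of CCK and 23.2% of PV cells with a read. One of 25 CA1 pyramidal cells held 1400 Col6a1 reads, or 987 CPM, and none of the other two chains. Col6a6 had 3 reads in burst cells and 0 in regular cells.

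The leptomeningeal fibroblast marker sum differed the same way, at 1229 CPM in regular, against 281 CPM in burst cells. Of this, Dcn alone made up 1219 CPM in regular cells, in 11 of 14 cells, against 270.5 CPM in burst cells, in 9 of 21. Lum, Ogn, Slc6a13 and Foxc1 had no read in any regular cell. Of these, Lum, Slc6a13 and Foxc1 were each read in 1 of 21 burst cells, and Ogn had no read there either. Islr was read in 3 of 14 regular cells, at 7.93 CPM, against 4 of 21 burst cells, at 2.66 CPM. Igf2 went the other way, at 1.09 CPM in 2 of 14 regular cells, against 5.18 CPM in 7 of 21 burst cells. Aldh1a2 and Slc22a6 were each read in 1 regular cell, at 0.242 and 0.605 CPM. In burst cells Aldh1a2 was read in 1 cell, at 0.779 CPM, and Slc22a6 in 2, at 0.825 CPM. In 6 of the 9 regular cells with Col6a1, the 8 markers other than Dcn were all at 0, and the highest of the 9 was at 96.9 CPM. One regular cell with 414 CPM of Col6a1 had no read of any of the 9 markers. With Dcn counted, the marker sum in the 9 cells ran from 0 to 3030 CPM. It was 1194 CPM in the cell with the most Col6a1. The part of fibroblast RNA in these levels was not tested.

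The vascular chains Col4a1 and Col4a2 were read in nearly every subiculum cell. Col4a1 summed to 69.9 CPM (95% interval 65.9 to 74.0) in regular and 57.4 CPM (95% interval 54.2 to 60.7) in burst cells, in 13 of 14 and 20 of 21 cells, with median and highest cells at 64.3 and 147 CPM in regular and 40.7 and 217.1 CPM in burst cells. Col4a2 summed to 110.8 CPM (95% interval 105.8 to 115.97) in regular and 73.9 CPM (95% interval 70.3 to 77.6) in burst cells, in 13 of 14 and 20 of 21 cells. The ratio of regular over burst cells was 1.22 (95% interval 1.12 to 1.32) for Col4a1 and 1.499 (95% interval 1.40 to 1.60) for Col4a2, with overlapping cells. Both genes together were read in 12 of 14 regular and 19 of 21 burst cells.

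In CA1 cells the same genes were patchy. Col4a2 was read in 11 of 19 CCK, 5 of 14 PV and 5 of 25 CA1 pyramidal cells, at 94.7 CPM, 99.5 CPM and 39.9 CPM summed. Col4a1 was read in 7 of 19, 5 of 14 and 3 of 25 cells of the same types, and 87.01% of its PV and 74.8% of its CA1 pyramidal reads came from a single cell. Endothelial markers summed to 25.5 CPM in regular and 14.7 CPM in burst cells, with reads of 8 of the 9 markers in each type. Ly6a was at 0 in regular and Cldn5 in burst cells. Esam alone made up 19.4 CPM in regular cells, in 6 of 14, and 10.1 CPM in burst cells, in 10 of 21. In CCK cells 3 of the 9 endothelial markers had a read, at 2.22 CPM in sum. In PV cells 2 had a read, at 20.75 CPM in sum, of which Esam in 1 of 14 cells made up 20.72 CPM. In CA1 pyramidal cells Esam alone had reads, at 14.14 CPM, in 3 of 25 cells. Mural markers summed to 3.95 CPM in CCK, 10.16 CPM in PV and 66.76 CPM in CA1 pyramidal cells. Their sums were 8.475 CPM in regular and 13.06 CPM in burst cells. The part of vascular RNA in the Col4a1 and Col4a2 levels was not tested.

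Markers of other cell types had reads in both subiculum and CA1 cells. Those of oligodendrocytes summed to 1813 CPM in regular and 4232 CPM in burst cells, with median cells at 1411 and 3566 CPM. Astrocyte markers summed to 425 CPM in regular and 527.95 CPM in burst cells, and microglial markers to 452 and 415 CPM. Of the 9 choroid plexus markers, 8 had reads in each subiculum type and summed to 179 CPM in regular and 372 CPM in burst cells. The median regular cell was at 14.9 CPM and the median burst cell at 71.8 CPM, and the highest burst cell was at 4887 CPM. The sums were 0.0603 CPM in CCK, 0 CPM in PV and 15.0 CPM in CA1 pyramidal cells. The part of these cell types in the collagen levels was not tested. Type I, II, III and VIII chains, which lead in fibroblasts, cartilage or choroid plexus, stayed at or under 1.08 CPM in every type, except Col1a1, whose 6.97 CPM in CA1 pyramidal cells came to 99.1% from 1 cell. Col4a5, Col13a1, Col17a1 and Col24a1 were at or under 0.0917 CPM in all types.

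The remaining members over 10 CPM were mostly carried by few cells. Col20a1 summed to 5.15 CPM (95% interval 4.11 to 6.36) in regular, against 15.5 CPM (95% interval 13.9 to 17.3) in burst cells, in 5 of 14 and 12 of 21 cells, a ratio of 0.331 (95% interval 0.258 to 0.421) that became 1.04 with equal weight per cell. Col16a1 was read in 7 of 14 regular and 11 of 21 burst cells at 8.48 CPM and 10.2 CPM, and in PV cells its 10.4 CPM came from 1 cell. Col5a2 reached 58.0 CPM in PV, 23.9 CPM in regular and 17.6 CPM in CA1 pyramidal cells, of which 97.7%, 91.7% and 100% came from a single cell each. Col11a1 reached 40.3 CPM in PV cells, from 4 of 14 cells, and 11.5 CPM in CA1 pyramidal cells, from 7 of 25 cells. A single cell held 51.8% of these PV reads and another 53.6% of these CA1 pyramidal reads. Col14a1 reached 14.21 CPM in CCK cells, from 4 of 19 cells, with 48.7% of the reads in 1 cell. The other 32 members stayed under 10 CPM in every type, the highest being Col27a1 at 8.97 CPM in CCK cells, 86.7% of it from 1 cell.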

How the data were processed

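RNA sequencing of 15 tissue libraries and 93 single neurons was analysed. The authors deposited whole-number counts for each gene symbol, to which no normalisation had been applied. HTSeq, STAR, Trim Galore, cutadapt and FastQC appear in the submitters' processing notes, with hg19 and mm10 as builds and no version or role for any of them. The collagen genes and all gene lists were chosen with earlier results of these data known. The 92 ERCC spike-in rows were left out of totals. Tissue counts were scaled by TMM and fitted with edgeR 4.0.16 (robust quasi-likelihood, 1 term per age, all 15 libraries) after filterByExpr, which left 14737 of 19485 genes with a read. P-values were adjusted over these genes by Benjamini-Hochberg and called under 0.05. Plain CPM in place of TMM moved the median gene by -0.14 (log2) at P28 against P0. On simulated data the fit was tested before use. Cell counts were summed per labelled type as CPM, with exact Poisson and binomial (Clopper-Pearson) intervals at 95%, which cover counting error only. Named genes are members called at P28 against P0 or over ages with a mean of at least 5 CPM at 1 age, or with at least 10 CPM in a cell type, and the 3 called genes with the largest change each way of each related list. Alternatives were RLE scaling, library totals, DESeq2 1.42.0, no filter, a replicate block, thinned libraries, 6 libraries alone, each library left out and, for cells, equal weight, thinning to 200000 reads and leaving out the deepest cell. Replicate numbers did not pair the ages: of 30 same-numbered pairs of libraries, 5 had a correlation over 0.1. Coordinates are from GENCODE M21 (mm10), in which all 43 members were found, and levels per kilobase use the longest principal transcript. One gene of the basement membrane list is counted in that list but not reported by name here.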

Additional observations from a re-analysis of the deposited data

How the results depend on the processing

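Among the alternatives, thinning kept the smallest share of single calls, 30 of 67, against 375 of 456 with 1 library left out. Thinned to the smallest library, with 31 members testable, the calls were 11 at P28 against P0 (4 higher, 7 lower), 8 at P7 against P0 (8 higher, 0 lower), 14 at P14 against P7 (12 lower) and 21 over ages. At P21 against P14 and P28 against P21 they were then 0 in each direction by edgeR, with 2 and 4 members at an unadjusted p under 0.05, and Col23a1 turned to -0.054 at P21 against P14. At P21 against P14 there were 5 calls in DESeq2 (3 higher, 2 lower), 1 in all and 0 lower with the 6 libraries alone (8 at an unadjusted p under 0.05), and 2 higher without the filter or with the replicate block. At P28 against P21, library totals alone (an alternative chosen after seeing the data) left 1 call and 0 lower (4 at an unadjusted p under 0.05), and the 6 libraries alone gave 2 higher. The cause of these changes was not tested, and the share of all genes called was counted for the main fit alone. The block changed 2 of 76 single calls, both lost, Col6a1 at P14 against P7 (-0.72, adjusted p = 0.0598) and Col15a1 at P28 against P0 (-1.13, adjusted p = 0.0582), and RLE scaling none. Leaving out 1 library at a time gave 15 to 21 calls at P28 against P0 (5 to 10 higher, 9 to 13 lower), 15 to 26 at P7 against P0 (15 to 25 higher, 0 to 1 lower), 24 to 28 at P14 against P7 (2 to 3 higher, 21 to 25 lower), 0 to 5 at P21 against P14 (0 to 4 higher, 0 to 2 lower), 0 to 3 at P28 against P21 (0 to 2 higher, 0 to 1 lower) and 32 to 36 over ages. The lowest counts at P28 and at P7 against P0 came without P0 replicate 3. Of 976 recomputed single calls, 842 held, 1 turned sign and the others missed the threshold. In cells, leaving out for each gene the cell with most of its reads (chosen after seeing the data) left 1 member over 10 CPM in CA1 pyramidal cells.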
